A study of Homo sapiens with 12 samples.

Results

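The genes described here encode the proteasome: the subunits of its 20S core, of its 19S cap, its interferon-inducible catalytic subunits, its activators and inhibitor, and the chaperones that assemble it. They were taken by name, as every entry of the count table whose symbol is PSMA, PSMB, PSMC, PSMD, PSME, PSMF or PSMG followed by a number only, which leaves out pseudogenes. The rule found 64 entries of 60234, which stand for 48 genes, and 46 of these had enough reads to be tested among 22668 tested genes. The study used MDA-MB-231, an established triple-negative breast cancer line, and sequenced RNA of cultured cells. Its population labelled fast had been captured by the trajectory of the cells, and its population labelled parental was the line before capture. Each population has 6 libraries, 3 in each of 2 batches. The series text calls the 3 libraries of a batch technical replicates and the batches biological ones, so the p-values below measure only how far libraries differ, possibly for technical reasons, and speak for 1 captured population and 1 parental population.

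The proteasome degrades proteins that carry ubiquitin chains. Rings of alpha subunits gate a barrel whose beta rings hold the proteolytic sites, and the 19S cap, made of a base with an ATPase ring and a lid, binds ubiquitin, removes it and feeds the unfolded protein into the barrel. Interferon induces PSMB9, PSMB10 and PSMB8, which take the places of the catalytic subunits PSMB6, PSMB7 and PSMB5 in newly built barrels, and such immunoproteasomes favour peptides that fit class I molecules. Cancer cells depend on the proteasome to clear surplus proteins, and the transcription factor NFE2L1 raises many of its genes when its activity is inhibited.

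Promoter windows from RefSeq (GRCh38.p14), reaching from 250 bases before to 50 bases after a transcription start, were matched to 42 of the 48 genes, with 51 windows in all. No window was used for PSMA7, PSMB1, PSMB6, PSMB7, PSMD4 and PSMG3. The first 5 stretches are shown because the same 10-base form of an interferon-type core, GAAAGCGAAA or its reverse complement, stands near the start of immunoproteasome and activator genes and of the chaperone gene PSMG4. Capitals mark the core, and each stretch runs 5′ to 3′ on the gene's strand.
PSMB8, chr6:32844033-32844082, minus strand: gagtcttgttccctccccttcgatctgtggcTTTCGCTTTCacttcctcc
PSMB10, chr16:67936847-67936896, minus strand: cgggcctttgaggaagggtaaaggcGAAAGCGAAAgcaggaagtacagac
PSME1, chr14:24136159-24136208, plus strand: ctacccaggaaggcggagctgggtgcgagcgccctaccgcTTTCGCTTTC
PSME2, chr14:24146614-24146663, minus strand: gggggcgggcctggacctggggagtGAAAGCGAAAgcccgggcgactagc
PSMG4, chr6:3258889-3258938, plus strand: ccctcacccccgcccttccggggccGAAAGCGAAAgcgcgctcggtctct

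The next 4 stretches hold the core of the antioxidant response element, TGACNNNGC on either strand, in capitals. They are shown because their genes include the largest rise of the family, another of its larger rises and 2 genes that were lower in fast cells.
PSMG2, chr18:12658673-12658722, plus strand: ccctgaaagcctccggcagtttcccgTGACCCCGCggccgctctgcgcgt
PSMD5, chr9:120843033-120843082, minus strand: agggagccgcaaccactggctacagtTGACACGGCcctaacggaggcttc
PSMA4, chr15:78540634-78540683, plus strand: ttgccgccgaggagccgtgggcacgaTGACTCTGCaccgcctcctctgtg
PSMB9, chr6:32854018-32854067, plus strand: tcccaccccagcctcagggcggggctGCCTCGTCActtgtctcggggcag

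The libraries held 53267145 to 75944907 counts each. Levels are CPM (counts scaled to a common library size) after TMM scaling, and the tested proteasome genes had a mean of 16.3 to 1069 CPM, with at least 852 counts in any library. Among markers of the line, the mesenchymal filament gene VIM had means of 5050 CPM (parental) and 6912 CPM (fast), and CDH1, the cadherin of epithelia, reached 4 counts at most. Other epithelial markers were present, KRT18 at 306 CPM (parental) and 358 CPM (fast) and EPCAM at 11.15 and 11.22 CPM. Of the receptor genes, ESR1 had 0.14 CPM in both populations. PGR had 0.48 CPM (parental) and 2.05 CPM (fast), and ERBB2 had 62.4 and 59.0 CPM. Of 15 leukocyte markers CD3D, CD2 and MS4A1 had 0 counts in every library, PTPRC had at most 4, and the summed level of the list ran from 22.6 to 26.8 CPM in fast and from 17.6 to 20.8 CPM in parental libraries, most of it from LCP1. The part of these markers in the results below was not tested.

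The main question was whether the subunits of this machine differed between fast and parental cells, and in which parts. Nearly all of them differed, in both directions and by little. Of the 46 genes, 23 were higher in fast cells, 19 were lower and 4 were not called (edgeR quasi-likelihood test, Benjamini-Hochberg adjusted p under 0.05). The called share was 91.3%, against 63.4% of all tested genes (31.9% higher and 31.5% lower). It was 81.1% of the 10567 genes with a mean of at least 10 CPM, a floor that every tested proteasome gene passed. These 10567 genes are referred to below as genes of that level. They were not matched to the proteasome genes, most of which lay well above the floor. The median log2 fold change was 0.07, against 0.05 for genes of that level. The median absolute change was 0.22, against 0.26 for genes of that level.

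At least 1.5-fold changes were called for 5 proteasome genes of 46, against 14.7% of genes of that level. They were PSMG2, PSMD5, PSMD7 and PSMB7, which were higher, and PSMD10, which was lower. All 6 fast libraries lay beyond all 6 parental libraries for 29 of the 46 genes, 16 of them higher and 13 lower, where 55.3% of genes of that level showed no overlap. Taken within each batch, the populations did not overlap in either batch for 35 genes, against 68.5%. The counts of called, non-overlapping and larger changes were thus not far from those of genes above the same floor, which were not matched in level.

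**Figure D1:**
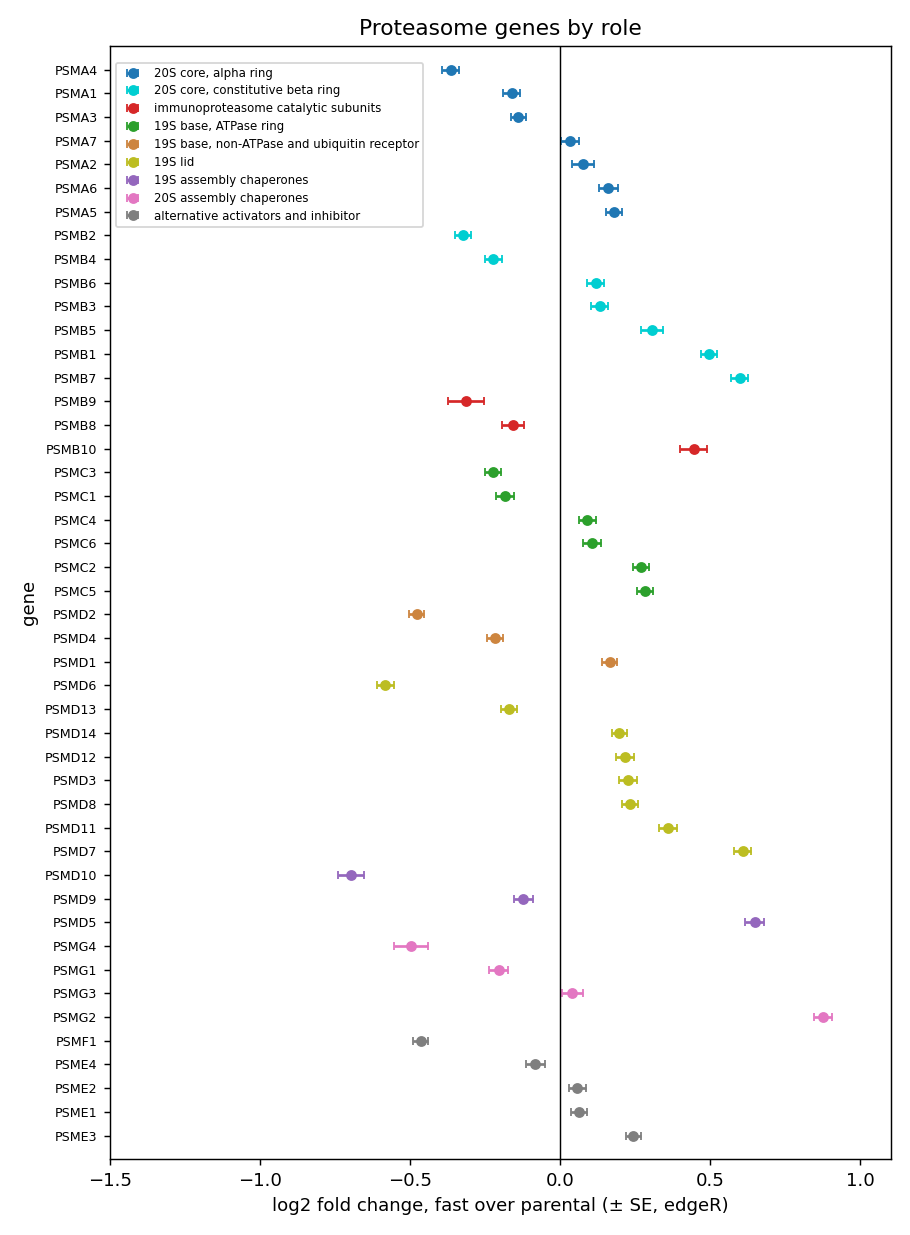
Log2 fold change of fast over parental cells (x axis) with its standard error for the 46 tested proteasome genes, grouped and coloured by role and ordered by size within a role. Every role holds points on both sides of 0, from PSMD10 at -0.70 to PSMG2 at 0.87.

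The immunoproteasome subunits did not move together. PSMB10 was higher and PSMB9 and PSMB8 were lower in fast cells. PSMB9 (ENSG00000240065), the inducible beta1 subunit, ran from 13.0 to 16.5 CPM (median 14.4) in fast libraries and from 14.7 to 23.4 CPM (median 16.95) in parental libraries. Its ranges overlapped over all libraries and did not overlap within either batch. The log2 fold change was -0.31 ± 0.06 SE (edgeR adjusted p = 4.57e-05), with -0.44 in batch 1 and -0.19 in batch 2.

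PSMB8 (ENSG00000204264), the inducible beta5 subunit and a neighbour of PSMB9 in the class II region of chromosome 6, ran from 35.1 to 45.2 CPM (median 41.4) in fast and from 39.3 to 50.4 CPM (median 45.9) in parental libraries. The ranges overlapped, also within batch 2. The log2 fold change of PSMB8 was -0.16 ± 0.04 SE (edgeR adjusted p = 0.000269), and the call was lost without a batch term (adjusted p = 0.0846) and when the 3 libraries of a population in a batch were summed (0.0593). PSMB10 (ENSG00000205220), the inducible beta2 subunit on chromosome 16, ran from 28.3 to 33.6 CPM (median 32.2) in fast and from 18.5 to 25.9 CPM (median 23.3) in parental libraries, with no overlap. Its log2 fold change was 0.44 ± 0.05 SE (edgeR adjusted p = 2.58e-10). In the annotation the exons of PSMB10 share 34.8% of their bases with a locus on the same strand, so their reads cannot be told apart there. Those of PSMB8 share 20.6% with the antisense gene PSMB8-AS1, and the sources used here do not say whether counting used the strand, so the source of these reads is uncertain as well.

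The constitutive partners of these subunits were all higher in fast cells. PSMB7 (ENSG00000136930), which carries the trypsin-like site, ran from 253.5 to 265.3 CPM (median 263) in fast and from 163 to 185 CPM (median 170) in parental libraries. The ranges of PSMB7 were far apart, at a log2 fold change of 0.60 ± 0.03 SE (edgeR adjusted p = 2.29e-19). PSMB5 (ENSG00000100804), the chymotrypsin-like subunit and the main target of proteasome inhibitor drugs, ran from 113 to 126 CPM (median 120.0) in fast and from 84.0 to 108 CPM (median 97.2) in parental libraries, also with no overlap (log2 fold change 0.31 ± 0.04 SE, edgeR adjusted p = 4.52e-08). PSMB6 (ENSG00000142507), the caspase-like subunit, ran from 137 to 159 CPM (median 149) in fast and from 124 to 150.1 CPM (median 134) in parental libraries. These ranges overlapped, at a log2 fold change of 0.12 ± 0.03 SE (edgeR adjusted p = 0.000647), and the call of PSMB6 was lost without a batch term (0.0538).

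**Figure D2:**
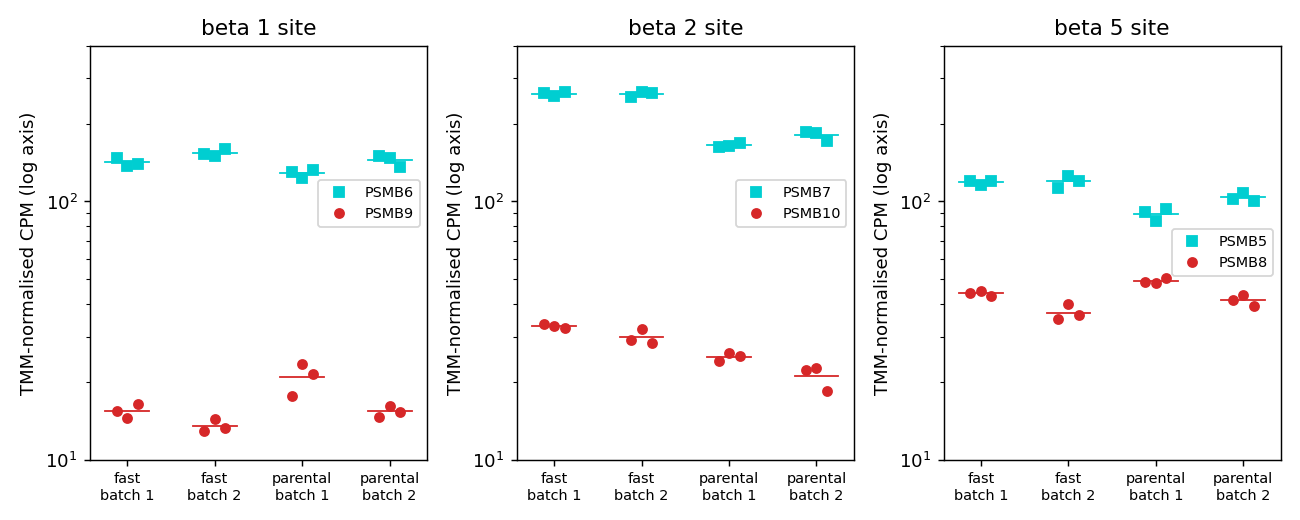
Level of each constitutive catalytic subunit (squares) and its inducible counterpart (circles) in TMM-normalised CPM on a log axis, by population and batch; points are libraries and lines are means of 3 libraries. The means of PSMB7, PSMB5 and PSMB10 lie higher in fast cells in both batches, and those of PSMB9 and PSMB8 lie lower.

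To compare levels between the subunits of a site, CPM were divided by the length of each gene's principal transcript in kilobases. On that scale PSMB9 stood at 18.6 in fast and 23.2 in parental cells, beside 173.5 and 160.0 for PSMB6. PSMB10 stood at 25.7 and 18.96, beside 266 and 176 for PSMB7, and PSMB8 stood at 36.2 and 40.3, beside 92.1 and 74.7 for PSMB5. The constitutive transcripts were therefore the larger part at each site in both populations. Of the summed PSMB8 and PSMB5 level, PSMB8 made up 25.8% to 31.0% (median 27.9%) in fast and 31.0% to 39.9% (median 35.0%) in parental libraries, and the ranges met without overlapping. Of the summed PSMB9 and PSMB6 level, PSMB9 made up 8.35% to 11.3% (median 9.84%) in fast and 9.63% to 17.1% (median 12.0%) in parental libraries, with overlap over all libraries. Of the summed PSMB10 and PSMB7 level, PSMB10 made up 7.96% to 9.35% (median 8.90%) in fast and 8.01% to 11.2% (median 9.80%) in parental libraries, with overlap.

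The log2 ratio of inducible to constitutive transcript was lower in fast than in parental cells at all 3 sites, with differences of -0.46 at the beta5 site, -0.42 at the beta1 site and -0.15 at the beta2 site. No test is given for these ratios, which combine fold changes already listed. At the beta2 site both transcripts were higher in fast cells and PSMB7 by more. The share of PSMB8 was also lower in batch 2 than in batch 1 within each population, at 31.0% to 31.9% in the parental libraries of batch 2 against 38.2% to 39.9% in those of batch 1, a gap about as wide as that between populations.

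**Figure D3:**
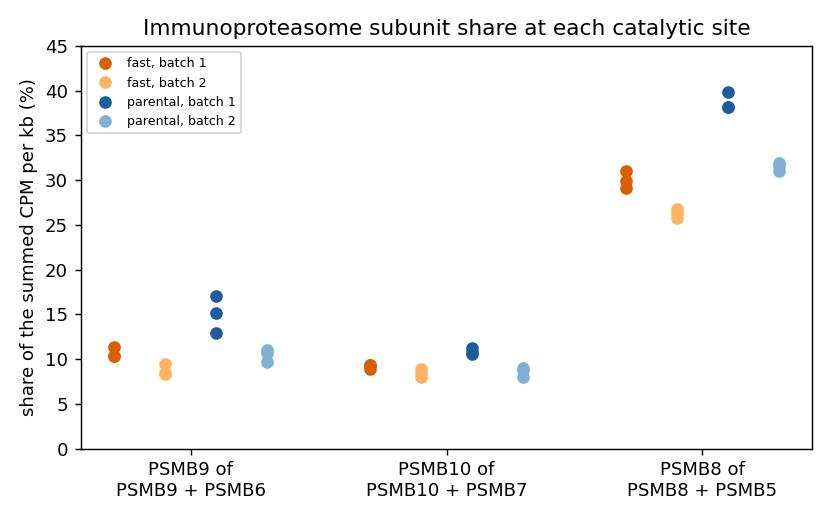
Share of the inducible subunit in the summed level of the inducible and constitutive subunit of each catalytic site (y axis, percent of CPM per kilobase), by library, with populations and batches in colour. Within each batch the fast libraries lie below the parental ones for PSMB9 and PSMB8, while for PSMB10 they overlap in batch 2.

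The 20S core was split between its subunits. Of the 14 constitutive alpha and beta genes 7 were higher, 5 lower and 2 not called, with a median log2 fold change of 0.10. The called share, 85.7%, was near the 81.1% of genes with at least 10 CPM. In the beta ring 5 of 7 were higher and 2 lower. PSMB1 (ENSG00000008018), a non-catalytic beta subunit, ran from 210.0 to 227 CPM (median 220.5) in fast and from 152 to 163 CPM (median 154) in parental libraries. This was a clear separation, at 1.41-fold (log2 fold change 0.50 ± 0.03 SE, edgeR adjusted p = 3.77e-18). PSMB3 was higher by 0.13, a call lost without a batch term (edgeR adjusted p = 0.0806), and PSMB2 and PSMB4 were lower, with log2 fold changes of -0.32 and -0.22.

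The alpha ring, whose subunits form the gate, had 2 genes higher, 3 lower and 2 not called, beside 81.1% called of genes with at least 10 CPM. PSMA4 (ENSG00000041357) was the alpha gene with the largest change, at 125 to 136 CPM (median 127) in fast and 162 to 173 CPM (median 167) in parental libraries. There was no overlap, at a log2 fold change of -0.37 ± 0.03 SE (edgeR adjusted p = 8.89e-14). PSMA1 and PSMA3 were lower, at -0.16 and -0.14, and PSMA5 and PSMA6 were higher, at 0.18 and 0.16. PSMA7, with the highest CPM of the ring, had a log2 fold change of 0.03 and PSMA2 one of 0.08 (edgeR adjusted p = 0.373 and 0.0782). PSMA2 was called in 5 of the 21 alternatives, with adjusted p-values down to 0.00244 without fast batch 2 replicate 1. The testis-type alpha subunit PSMA8 and the thymus-type catalytic subunit PSMB11 were near 0 in all libraries and were not tested.

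All 17 genes of the 19S cap under the naming rule were called, 11 higher and 6 lower, with a median log2 fold change of 0.16. Of the cap subunit genes outside the rule, ADRM1 was higher by 0.34 and SEM1 was not called (edgeR adjusted p = 0.944). All 8 lid genes under the rule differed without overlap between the populations, 6 of them higher and 2 lower (median 0.22). Of genes with at least 10 CPM, 55.3% showed no overlap and 81.1% were called. PSMD7 (ENSG00000103035), a lid subunit that pairs with the deubiquitinase, ran from 148 to 161 CPM (median 152) in fast and from 95.5 to 109 CPM (median 98.7) in parental libraries. It was the largest rise of the cap, at 1.52-fold (log2 fold change 0.61 ± 0.03 SE, edgeR adjusted p = 1.28e-19). PSMD6 (ENSG00000163636), another lid subunit, went the other way, with 76.4 to 86.0 CPM (median 80.9) in fast and 116 to 130.1 CPM (median 120) in parental libraries, a log2 fold change of -0.58 ± 0.03 SE (edgeR adjusted p = 3.76e-19). PSMD14, the deubiquitinase itself, was higher by 0.20, PSMD11 by 0.36, PSMD8 by 0.23, PSMD3 by 0.22 and PSMD12 by 0.22, and PSMD13 was lower, at -0.17. Fold changes of the lid transcripts thus ran from -0.58 to 0.61. Lid subunits stand in equal numbers in the assembled cap, but these are values of RNA and say nothing of subunit numbers.

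In the base, 4 of the 6 ATPase genes were higher and 2 lower, beside 81.1% called of genes with at least 10 CPM. PSMC5 and PSMC2 led, at 0.28 and 0.27, and PSMC3 and PSMC1 were lower, at -0.22 and -0.18. PSMC6 and PSMC4 were higher by 0.11 and 0.09, and both calls were lost without a batch term (edgeR adjusted p = 0.0920 and 0.183) and on the sums (0.0662 and 0.0950). The ATPase gene PSMC1 has a processed copy, PSMC1P1, whose counts came to 10.8% of its own, so reads may have been split between them.

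PSMD2 (ENSG00000175166), the large scaffold of the base that receives ubiquitin-like proteins, had the highest CPM of the family. It ran from 835 to 959 CPM (median 886) in fast and from 1155 to 1363 CPM (median 1220) in parental libraries, all parental libraries lying above all fast ones. The log2 fold change was -0.48 ± 0.02 SE (edgeR adjusted p = 2.58e-18). The ubiquitin receptor PSMD4 was lower too, at -0.22, and the second scaffold PSMD1 was higher, at 0.16.

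The assembly chaperones held the largest changes in both directions. PSMG2 (ENSG00000128789), which with PSMG1 starts the alpha ring, ran from 126 to 143 CPM (median 135) in fast and from 70.1 to 79.9 CPM (median 72.4) in parental libraries. It was 1.83-fold higher (log2 fold change 0.87 ± 0.03 SE, edgeR adjusted p = 3.05e-23), while its partner PSMG1 was lower, at -0.21. PSMG4 (ENSG00000180822), of the other chaperone pair of the alpha ring, ran from 14.3 to 16.5 CPM (median 15.9) in fast and from 18.7 to 24.7 CPM (median 22.6) in parental libraries. It was lower without overlap (log2 fold change -0.50 ± 0.06 SE, edgeR adjusted p = 2.71e-09), and its partner PSMG3 had a log2 fold change of 0.04 (edgeR adjusted p = 0.344). In both pairs the partners had different values.

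Among chaperones of the 19S base, PSMD5 (ENSG00000095261) ran from 83.9 to 95.2 CPM (median 89.8) in fast and from 54.1 to 61.5 CPM (median 56.9) in parental libraries. It was 1.57-fold higher (log2 fold change 0.65 ± 0.03 SE, edgeR adjusted p = 1.17e-18). PSMD10 (ENSG00000101843), known as the oncoprotein gankyrin and encoded on the X chromosome, ran from 23.5 to 27.8 CPM (median 26.2) in fast and from 36.2 to 49.7 CPM (median 42.4) in parental libraries. It was 1.62-fold lower, the largest fall of the family (log2 fold change -0.70 ± 0.04 SE, edgeR adjusted p = 4.83e-16). PSMD9 was lower by a smaller amount, at -0.12, and this call was lost on the sums (edgeR adjusted p = 0.0916).

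Of the alternative activators and the inhibitor, PSMF1 changed most. PSMF1 (ENSG00000125818), which binds the core and inhibits it in vitro, ran from 80.1 to 91.9 CPM (median 86.8) in fast and from 113 to 126 CPM (median 120) in parental libraries. The ranges were apart, at a log2 fold change of -0.47 ± 0.03 SE (edgeR adjusted p = 3.70e-17). The nuclear activator subunit PSME3 was higher, at 0.24. The interferon-inducible activator subunits PSME1 and PSME2 had log2 fold changes of 0.06 and 0.06, the first called and the second not (edgeR adjusted p = 0.0465 and 0.0800), and both ranges overlapped. The call of PSME1 was lost in 12 of the 21 alternatives (0.0788 to 0.300), and PSME2 was called once fast batch 1 replicate 2, parental batch 2 replicate 1 or parental batch 2 replicate 2 was left out (0.0161 to 0.0485).

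The design allows the effect to be compared between batches. In batch 1, 42 of the 46 genes were called, against 76.8% of genes with at least 10 CPM, and in batch 2, 39, against 76.0%. Called in both batches were 37 genes, all with the same sign. No share of other genes called in both batches is given beside this count, so whether it is particular to the proteasome was not tested. The signed log2 fold change was lower in batch 2 than in batch 1 for 36 of 46 genes, with a median difference of -0.06, against -0.02 for genes of that level. For a gene that was lower in fast cells in batch 1, this means a larger fall in batch 2. The share of other genes with a lower value in batch 2 is not given.

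The difference between batches itself was called for 6 genes, PSMB5, PSMC5, PSMD3, PSMD11, PSMD12 and PSME4, against 9.75% of genes of that level and 5.40% of all tested genes. For PSMD3 (ENSG00000108344), a lid subunit, fast libraries ran from 295 to 301 CPM in batch 1 and from 279 to 290 CPM in batch 2, and parental libraries from 235 to 243 and from 251 to 264 CPM. The populations drew nearer from both sides, with log2 fold changes of 0.33 and 0.13 and a difference of -0.20 ± 0.04 SE (edgeR adjusted p = 0.00236). For PSMD12 (ENSG00000197170), the fold changes were 0.31 and 0.12 (difference -0.20 ± 0.05 SE, edgeR adjusted p = 0.00478), and fast and parental libraries ran from 189 to 208 and from 161 to 182 CPM over both batches, with medians of 199.9 and 171. Both genes stayed higher in fast cells in each batch.

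For PSMB5 the log2 fold changes were 0.40 and 0.21 (difference -0.20 ± 0.06 SE, edgeR adjusted p = 0.0285). PSME4 (ENSG00000068878), which encodes the activator PA200, ran from 132 to 137 CPM in fast and from 131 to 137 CPM in parental libraries of batch 1, and from 115 to 124 and from 132 to 134 CPM in batch 2. Its fold changes were 0.01 and -0.17 (difference -0.18 ± 0.05 SE, edgeR adjusted p = 0.0190), so that its overall log2 fold change of -0.08 (adjusted p = 0.0184) came from batch 2. That overall call was lost in 5 of the 21 alternatives, among them the removal of fast batch 2 replicate 2 and of parental batch 2 replicate 1 and 2 (0.0588 to 0.284).

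The calls of a difference between batches were unstable. Of 16 alternatives, PSMD3 was called in 13, PSMD12 in 12, PSME4 in 6, PSMB5 in 4, PSMD11 in 3 and PSMC5 in 1. The count fell to 1 gene without fast batch 2 replicate 2 or 3, to 2 when fast batch 2 replicate 1, parental batch 2 replicate 2 or parental batch 2 replicate 3 was left out, and to 3 when fast batch 1 replicate 1, fast batch 1 replicate 3 or parental batch 1 replicate 2 was. With no filter on low counts, PSMB9 and PSMD10 were called instead of these 6 genes.

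**Figure D4:**
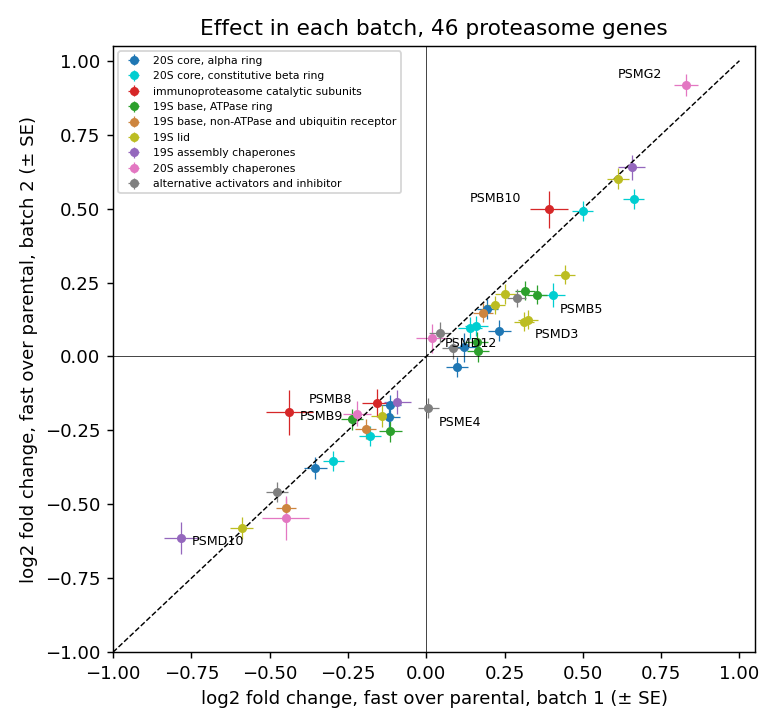
Log2 fold change of fast over parental cells in batch 1 (x axis) and batch 2 (y axis), each with its standard error, for the 46 tested genes coloured by role; the dashed line marks equal effects. Of the 46 points, 36 lie below the line, and PSMG2, PSMD7 and PSMD10 keep the sides they hold in the pooled comparison.

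The 46 genes lie on 17 chromosomes, and their position was compared next. No share of all genes on a chromosome is given beside the counts that follow. All 7 genes of chromosome 17 were higher in fast cells (PSMB3, PSMB6, PSMC5, PSMD3, PSMD11, PSMD12 and PSME3, with log2 fold changes of 0.12 to 0.36), as were both of chromosome 9 (PSMB7 and PSMD5, at 0.60 and 0.65) and both of chromosome 16 (PSMB10 and PSMD7). All 3 of chromosome 11 were lower (PSMA1, PSMC3 and PSMD13, at -0.16 to -0.22), as were both of chromosome 3 (PSMD2 and PSMD6). Chromosome 14 was mixed, with 4 of 7 higher, 2 lower and 1 not called. Of the 6 lid genes that were higher, PSMD3, PSMD11 and PSMD12 lie on chromosome 17, PSMD7 on 16, PSMD8 on 19 and PSMD14 on 2.

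Each gene was set beside the median log2 fold change of up to 10 expressed genes on either side, with proteasome genes and overlapping genes left out. Of the 42 called genes, 38 (90.5%) had a neighbour median of the same sign, against 81.6% of the 8417 called genes with at least 10 CPM and such a median. Of all 46 genes, 42 (91.3%) had one, against 76.9% of the 10353 genes of that level, called or not. Across the 46 genes, which share libraries and in part neighbours, the fold change and the neighbour median were correlated at 0.89 (Pearson) and 0.84 (Spearman) (0.83 and 0.79 for the 42 genes outside chromosomes 16, 18 and X), and for genes of that level these were 0.51 and 0.64. The median absolute distance of a proteasome gene from its neighbours was 0.11, against its median absolute change of 0.22. The corresponding values for genes of that level were 0.17 and 0.26.

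The 12 genes with the largest changes all had the sign of their neighbours, at distances that varied, with PSMG4 the farthest. PSMG2 had 0.87 beside a neighbour median of 0.78, PSMD10 had -0.70 beside -0.78, PSMD7 had 0.61 beside 0.57, PSMD5 had 0.65 beside 0.48, PSMB7 had 0.60 beside 0.39, PSMD6 had -0.58 beside -0.46 and PSMD2 had -0.48 beside -0.48. Of the immunoproteasome genes, PSMB10 had 0.44 beside 0.51 and PSMB9 -0.31 beside -0.37, while PSMB8, at -0.16 beside -0.39, had the sign of its neighbours and a smaller change. PSMG4, at -0.50 beside -0.02, and PSMD11, at 0.36 beside 0.05, had changes that their neighbours lacked. PSMG3, at 0.04 beside 0.35, and PSME4, at -0.08 beside 0.20, stood apart from theirs. Like PSME4, 3 other genes were called against the sign of their neighbours. They were PSMD12, at 0.22 beside -0.01, PSMG1, at -0.21 beside 0.01, and PSME1, at 0.06 beside -0.075. For the 7 genes of chromosome 17, neighbour medians ran from -0.01 (PSMD12) to 0.23 (PSMD3). What part position had in these values was not tested.

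**Figure D5:**
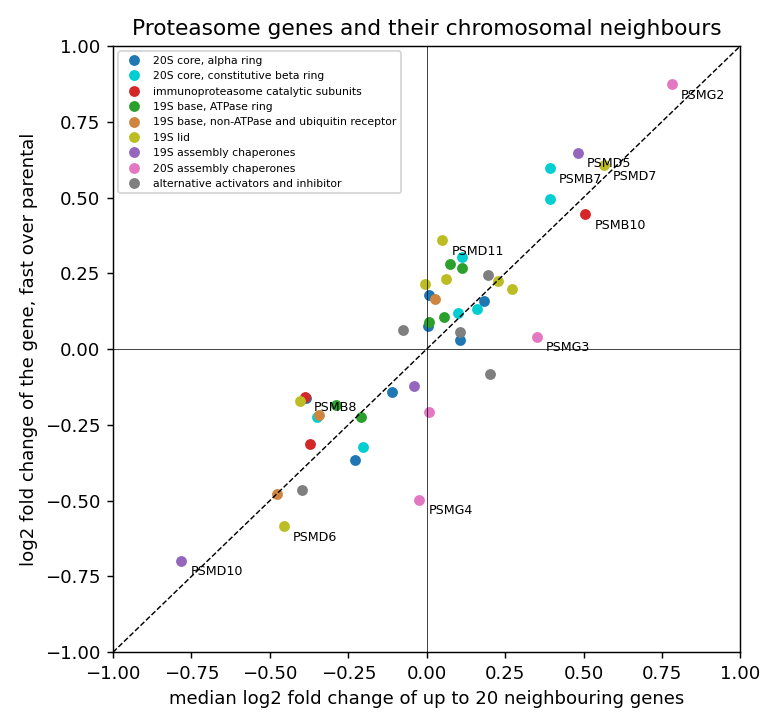
Log2 fold change of each of the 46 tested genes (y axis) against the median of up to 10 neighbouring genes on each side (x axis), coloured by role; the dashed line marks equal values. Most points lie near the line, with PSMG4, PSMG3 and PSMD11 among those away from it.

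The promoter windows were searched on both strands for 4 motifs, and no matches of different motifs overlapped in the proteasome windows. The antioxidant response core TGACNNNGC was found in 29.4% of the 51 proteasome windows and in 13.3% of all 35116 windows of that length. The 15 genes that hold it were 9 higher, 5 lower and 1 not called, from PSMA4 at -0.37 to PSMG2 at 0.87. Beside this and the other motif counts, 91.3% of all 46 proteasome genes and 81.1% of genes with at least 10 CPM were called. Whether genes with a motif differ from these shares was not tested. The interferon-type core, GAAA followed after any 2 bases by GAAA, was found in 13.7% against 3.57%, in PSMA4, PSMB4, PSMB8, PSMB10, PSME1, PSME2 and PSMG4, of which 2 were higher, 4 lower and 1 not called. The form printed above for 5 genes was chosen as the one shared by PSMB8 and PSMB10, that is, from the proteasome windows themselves. Its share, 9.80% of these windows against 0.0997% of all windows, was therefore in part fixed in advance and is no independent comparison. The form starts 21 bases before the start in PSMB10, 28 in PSME2, 33 in PSMG4 and 4 in PSMB8, and in PSME1 it lies after the start. The genes with this same form had log2 fold changes from -0.50 in PSMG4 to 0.44 in PSMB10.

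The gamma-activated sequence TTCNNNGAA was found in 15.7% against 7.66% and the CCAAT box, CCAAT, in 39.2% against 34.6%. Of the 7 tested genes with the first, 4 were higher and 2 lower, and of the 19 with the second, 10 were higher and 8 lower. A match is a description of the letters in these windows and says nothing of binding.

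Other genes of the ubiquitin-proteasome system also went both ways. Of 26 genes outside the naming rule that work with the proteasome, 16 were higher, 7 lower and 3 not called (median log2 fold change 0.10), a called share near the 81.1% of genes with at least 10 CPM. The deubiquitinase USP14 was higher by 0.61 and the shuttle receptor RAD23B by 0.56. TXNL1, a thioredoxin-like protein of the cap, had -0.74. The transcription factor NFE2L1, which controls proteasome genes, had 344 CPM in fast against 296 CPM in parental libraries (log2 fold change 0.22 ± 0.02 SE, edgeR adjusted p = 1.48e-09), and POMP, the maturation factor of the barrel, was higher by 0.18. The cap receptor ADRM1 was higher by 0.34, and the small cap subunit SEM1 had 0.00 (adjusted p = 0.944).

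Genes of class I antigen processing, which use the peptides the proteasome makes, were 6 higher, 9 lower and 2 not called of 17 (median -0.08), beside 63.4% called of all genes and 81.1% of those with at least 10 CPM. HLA-F, a class I heavy chain whose reads may be shared with near-identical relatives, had the largest change, with 0.923 CPM in fast against 2.99 CPM in parental libraries (log2 fold change -1.70 ± 0.12 SE, edgeR adjusted p = 3.36e-14). The class I regulator NLRC5 was higher by 0.61 and the peptidase ERAP2 by 0.57, and the peptide transporter TAP1, encoded beside PSMB9, was lower, at -0.39. The interferon-response regulator IRF1 was lower, at -0.34. The inducible subunits and these genes thus did not share a direction, and PSMB9, PSMB8 and TAP1, neighbours on chromosome 6, were all lower.

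Of the 64 entries, 14 were second identifiers of PSMB8 and PSMB9 with 0 counts in every library. Second entries of PSMA1 and PSMA2, loci that share exons with these genes, had reads amounting to 85.6% and 104% of those of the main entries and log2 fold changes of -0.16 and 0.07, close to those of the main entries. Each gene was counted once. Exons that overlap another gene also make PSMC1 uncertain, which shares 75.8% of its exon bases with NRDE2 on the other strand, as well as PSMD7, with 30.7%, and PSMC5, with 19.5%. PSMG2 shares 13.9% with CEP76 and PSMG4 13.3% with SLC22A23, also on the other strand. On the same strand, PSMA6 shares 14.1% with AL121594.1 and PSMD9 14.9% with AC069503.2. Further genes have overlaps that are not listed. Fewer cells with a transcript and less of it per cell cannot be told apart in these bulk libraries.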

How the data were processed

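RNA of cultured MDA-MB-231 cells was sequenced in 12 libraries. The authors deposited raw counts of reads per gene; the submitters' processing notes name Trimmomatic 0.32, STAR 2.3.0e, featureCounts 1.4.4 and the builds hg19 and GRCh37. The sources used here do not say whether counting used the strand.

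The counts were tested with edgeR 4.0.16 in R 4.3.3 over all 22668 genes left by its low-count filter (minimum count 10, minimum total 15), with TMM scaling, batch as a term and Benjamini-Hochberg adjustment over all of them, at a threshold of 0.05. Effects within batches and their difference came from a fit of separate means for the 4 combinations of population and batch. DESeq2 1.42.0, limma 3.58.1 (voom), other scalings and filters, no batch term, a replicate block, sums of libraries and leaving out each library were alternatives. Gene order and transcript lengths came from GENCODE release 29 (GRCh38) by gene ID, neighbours having a mean of at least 1 CPM. Promoters came from RefSeq GRCh38.p14.

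The members and gene lists were chosen with earlier results of these data known. Values by library are given for the 6 catalytic subunits, the 6 largest rises and 6 largest falls (mean of 5 CPM or more) and the 4 largest differences between batches; other genes of the family are given by fold change. Of the associated and class I lists the 4 called genes with the largest changes are named, except that some genes of these lists are not reported here; ADRM1, SEM1, POMP, NFE2L1 and IRF1 were added after their values were seen, as were the genes away from their neighbours and the promoter stretches shown. Of the steps, only the edgeR fits of the pooled effect and of the difference between batches were tested on simulated counts. With 50 changed genes of each kind, 1.1-fold changes were recovered for 40% and 1.25-fold changes for 100%. A 1.25-fold difference between batches was recovered for 46%.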

Additional observations from a re-analysis of the deposited data

Results flagged for a closer look

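The effect differed between batches by edgeR's test for 6 proteasome genes, as batch 2 minus batch 1 on the log2 scale: PSMD3 by -0.20, PSMB5 by -0.20, PSMD12 by -0.20, PSME4 by -0.18, PSMD11 by -0.165 and PSMC5 by -0.15. All 6 differences have the same sign, and 5 of the 6 genes were higher in fast cells in both batches. The exception, PSME4, had 0.01 in batch 1 and -0.17 in batch 2. Replicate libraries of a batch are described as technical and the batches as biological replicates. The labels do not say whether a batch was a separate culture or a separate capture, and what set the batches apart was not tested. In the 38 sets of 6 libraries examined, a population of a gene given by library, no library stood apart from the others by Dixon's criterion. Each set pools both batches, and levels differed between them for some genes, as for PSMB9 in parental libraries (17.7 to 23.4 against 14.7 to 16.2 CPM). A range widened in this way makes the criterion less likely to flag a library.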

How the results depend on the processing

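Under 21 alternatives (12 of them leaving out a library), no proteasome gene changed direction. Of 966 pairs of a gene and an alternative, 932 kept the call or its absence, 26 lost a call and 8 gained one, all in 10 of the 46 genes. The number of genes called higher ran from 18 without a batch term to 25, and the number called lower from 16 on sums of the libraries to 19. The median log2 fold change of the genes ran from 0.05 to 0.09. Replicate numbers did not pair the libraries (correlations of their deviations from -0.076 to 0.074); these are the numbers of the sample titles, and in batch 1 the numbers in the count table differ for 3 libraries, so that the libraries titled replicate 2 there share no number in it. With a replicate block by title, 22 genes were higher and 19 lower, and only PSME1 lost its call (edgeR adjusted p = 0.0853). The number of genes whose effect differed between batches, 6, was 2 with RLE factors, with upper-quartile factors, with no low-count filter and when only genes averaging 1 CPM or more were kept, and 1 to 7 when a library was left out; the cause was not tested. The libraries of a batch are technical replicates by the series text, and their sums leave 4 samples, 2 of each population.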
